A study of Mus musculus with 39 samples.

Results

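The RNA of 10 genes that fold proteins in the endoplasmic reticulum (ER) or respond to stress there was examined in single crypt epithelial cells of the irradiated mouse intestine. The genes were picked by name, as 10 of the 25219 genes in the deposited table. Of these, 7 encode folding proteins (Hspa5, Hsp90b1, Calr, Canx, Pdia3, Pdia4 and Pdia6) and 3 encode stress transcription factors (Xbp1, Atf4 and Ddit3).

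The mice carried Lgr5-EGFP-Ires-CreERT2:Rosa-lsl-tdTomato, a pair of alleles with which tamoxifen lets Cre recombinase, driven from the Lgr5 stem cell locus, switch on the red protein tdTomato in Lgr5-expressing cells and in all cells that descend from them. Tamoxifen was given 24 h before 10 Gy of total body irradiation (TBI), and tdTomato+ Sca1- crypt epithelial cells were sorted 48 h after TBI, captured on a microfluidic chip and sequenced one by one. The 39 cells form 1 group, and cells from unirradiated mice were not analysed here. Since the labels tie no cell to an animal, the cells count as 1 sample, the SDs given describe cells rather than mice, and no test was run.

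Expression is given as FPKM (fragments counted per length of transcript and per depth of the cell), a unit that divides by transcript length, so that levels of different genes can be set side by side. The limit of detection was set at 1 FPKM. Depth ran from 398418 to 3903971 estimated counts per cell (median 3089188), and between 2287 and 5779 genes were detected (median 4609). The epithelial part of the label was checked against marker genes, and the Sca1- and tdTomato+ parts were not checked. Epcam, Krt8 and Krt18 were detected in all 39 cells, Cdh1 in 38, Vil1 in 31 and Krt20 in 1. The immune genes Ptprc, Cd3e and Cd79a were detected in 0 cells. The stromal and enteroendocrine lists never summed to more than 3.29 and 1.38 FPKM in a cell. The immune list reached 100 FPKM in 1 cell, cell 51, through Cd68 (112 FPKM). Cells 9 and 79 stood apart with 2287 and 2335 genes detected, cells 79 and 96 carried tuft cell marker RNA (summed to 853 and 1772 FPKM), cell 79 also carried the most enterocyte marker RNA (41010 FPKM, against at most 1433 in the others), and cells 5 and 63 carried the most goblet marker RNA (summed to 26750 and 41350 FPKM). Results were therefore also computed without cells 9 and 79 and without cells 5 and 63.

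Secreted and membrane proteins enter the ER unfolded. Chaperones hold them, lectins bind their sugar chains and disulfide isomerases join their cysteines until they are folded. When unfolded proteins build up, membrane sensors start the unfolded protein response, in which the splicing of Xbp1 RNA, the translation of Atf4 and the induction of Ddit3 (CHOP) are well known steps, and the folding genes are among the best known targets. Paneth and goblet cells of the crypt are secretory cells that rely on this machinery.

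The best known element of this response in promoters is the ER stress element (ERSE), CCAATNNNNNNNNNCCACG, bound by NF-Y and ATF6. The 250 bases before the RefSeq start site of each gene (GRCm38.p6) were searched for it on both strands. All 10 genes had an entry, and 5 of them (Hspa5, Hsp90b1, Calr, Canx and Pdia6) held an exact match. Of 32817 promoter windows of the same length, 0.113% did. The genes were picked by name as genes of this response and ERSE is its element, so these shares are no test of enrichment. These 5 windows are printed 5′ to 3′ on the strand of the gene, with the half-sites of each match in capitals.

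Hspa5 (chr2:34771840-34772089, plus strand): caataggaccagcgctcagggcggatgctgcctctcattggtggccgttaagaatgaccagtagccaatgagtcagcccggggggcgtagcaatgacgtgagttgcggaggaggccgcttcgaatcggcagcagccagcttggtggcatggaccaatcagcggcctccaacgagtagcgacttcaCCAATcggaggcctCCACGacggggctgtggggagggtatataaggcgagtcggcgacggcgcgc
Hsp90b1 (chr10:86705445-86705694, minus strand): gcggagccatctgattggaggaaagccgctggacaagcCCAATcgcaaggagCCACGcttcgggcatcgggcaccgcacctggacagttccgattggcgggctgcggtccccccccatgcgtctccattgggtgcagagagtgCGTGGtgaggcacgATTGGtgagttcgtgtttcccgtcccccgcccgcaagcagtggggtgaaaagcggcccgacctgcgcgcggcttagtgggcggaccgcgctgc
Calr (chr8:84846932-84847181, minus strand): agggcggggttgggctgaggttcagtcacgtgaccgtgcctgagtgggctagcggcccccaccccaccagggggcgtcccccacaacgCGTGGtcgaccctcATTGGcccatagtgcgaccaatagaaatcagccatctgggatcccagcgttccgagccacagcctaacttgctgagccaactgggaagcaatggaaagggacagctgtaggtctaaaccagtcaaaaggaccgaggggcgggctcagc
Canx (chr11:50325674-50325923, minus strand): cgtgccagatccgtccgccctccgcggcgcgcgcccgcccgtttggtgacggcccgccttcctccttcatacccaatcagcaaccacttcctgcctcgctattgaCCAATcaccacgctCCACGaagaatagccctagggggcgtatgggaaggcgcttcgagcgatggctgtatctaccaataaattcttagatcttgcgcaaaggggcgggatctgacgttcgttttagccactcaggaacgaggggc
Pdia6 (chr12:17266339-17266588, plus strand): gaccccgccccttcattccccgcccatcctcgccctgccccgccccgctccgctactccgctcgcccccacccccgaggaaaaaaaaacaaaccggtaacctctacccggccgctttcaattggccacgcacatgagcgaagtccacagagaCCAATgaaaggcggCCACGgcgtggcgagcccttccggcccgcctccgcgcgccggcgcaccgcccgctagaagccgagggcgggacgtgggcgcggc

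Hsp90b1 held 2 matches and the others 1 each. The first base of a match lay 65 bases before the start site in Hspa5, 98 in Pdia6, 145 in Canx, 162 in Calr (on the opposite strand), and 212 and 107 in Hsp90b1 (the nearer one on the opposite strand). Pdia3, Pdia4, Xbp1, Atf4 and Ddit3 held no exact match. None of the 10 windows held ERSE-II (ATTGGNCCACG, 0.0305% of all windows), the element UPRE (TGACGTGG, 0.564%) or the ATF4 element CARE (TGATGNAA, 3.45%). The half-site CCAAT alone, which overlaps every ERSE, was in 9 of the 10 windows and in 33.8% of all windows. A match describes letters and is not a measured binding site, and the absence of a match says only that these letters are not in the window.

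The 2 ER chaperones were abundant in nearly every cell. Hspa5, which encodes BiP, the Hsp70 of the ER, ranged from 14.6 FPKM in cell 92 over a median of 363 to 957 in cell 51, the cell with Cd68 RNA. Hsp90b1, which encodes the ER Hsp90 GRP94, ranged from 22.4 FPKM in cell 22 over a median of 299 to 780 in cell 5. Both were detected in 39 of 39 cells and reached 100 FPKM in 34. The low cells were few: Hspa5 stayed under 100 FPKM in cells 9, 16, 22, 92 and 96, and Hsp90b1 in cells 9, 16, 22 and 92 and in 1 further cell, so 4 cells were shared. On the log2(FPKM + 1) scale the levels were 8.11 ± 1.24 for Hspa5 and 8.07 ± 1.11 for Hsp90b1 (mean ± SD over 39 cells).

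The 2 lectins of the calnexin cycle differed in how evenly they were spread. Canx, the membrane-bound lectin, had the highest median of the 10 genes, 484 FPKM, and ranged from 2.22 FPKM in cell 79 to 1684 in cell 5. Calr, its soluble counterpart, had a median of 158 FPKM and ranged from 0.127 FPKM in cell 48 to 662, again in cell 5. Canx reached 100 FPKM in 37 of 39 cells and Calr in 26, and Calr was below the detection limit in cells 9 and 48. Cell 9 was at rank 38 of 39 for both genes (0.864 FPKM of Calr and 86.5 of Canx). In contrast, cell 48, with the lowest Calr, had 729 FPKM of Canx, at rank 5.

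Of the 3 disulfide isomerases, Pdia3 and Pdia6 were abundant and Pdia4 was scarce. Pdia3 (ERp57), the partner of both lectins, had a median of 131 FPKM and was detected in 39 of 39 cells, from 1.15 FPKM in cell 79 to 2316 in cell 48. That 1 cell held 26.4% of all Pdia3 FPKM. Pdia6 had a median of 159 FPKM, a highest value of 911 in cell 63, and passed the detection limit in 34 cells (87.2%, exact 95% interval 72.6% to 95.7%, counting error only). It was listed at 0 in cells 39 and 56. Pdia4 (ERp72) had the lowest median of the folding genes, 1.45 FPKM, and detection in 22 cells (56.4%, interval 39.6% to 72.2%). Only 4 cells reached 100 FPKM of Pdia4, namely cells 17 (267.9), 76 (148.7), 34 (134.2) and 36 (128.2), and none of these was the highest cell for another folding gene.

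Among the stress factors, Atf4 was common, Xbp1 was patchy and Ddit3 was nearly absent. Atf4, whose protein drives amino acid and redox genes under stress, had a median of 57.0 FPKM, and 33 of 39 cells passed the detection limit (84.6%, interval 69.5% to 94.1%). Its highest values were 358 FPKM in cell 65 and 327 in cell 63, and it was listed at 0 in cell 9 and in 1 further cell, which lacked all 3 factors. Xbp1 had a median of 0.977 FPKM, was listed at 0 in 13 cells and passed the detection limit in 19 (48.7%, interval 32.4% to 65.2%). The values of Xbp1 ran widely: 13 cells reached 10 FPKM and 2 reached 100, cell 16 with 143 FPKM and cell 65 with 116. The table gives 1 value per gene, so the spliced and unspliced forms of Xbp1 RNA could not be told apart.

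Ddit3, the factor linked to cell death under lasting stress, passed the detection limit in 4 of 39 cells (10.3%, interval 2.87% to 24.2%) and listed at 0 in 34. It stood at 107 FPKM in cell 5 (316.5 estimated counts), 12.7 in cell 63 (33 counts), 5.59 in cell 66 (21 counts) and 1.11 in cell 2. Cell 5 alone held 84.1% of all Ddit3 FPKM. Without cells 5 and 63, the highest Ddit3 value was 5.59 FPKM and 2 of 37 cells detected it. The gene overlaps Mars on the opposite strand, and the sources used here do not say whether counting used strand. Mars was listed at 0 in cells 5 and 66, at 5.76 FPKM in cell 63 and at 107 in cell 2, so the value of cell 2 is the least certain.

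**Figure D1:**
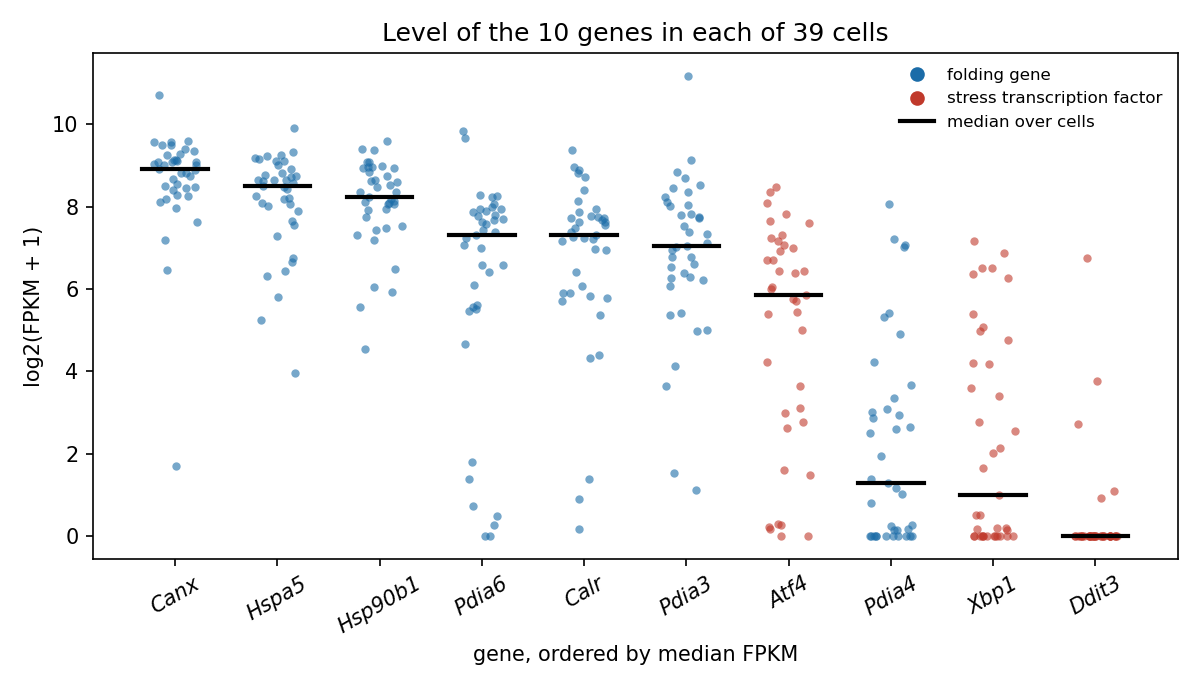
Level of each of the 10 genes in each of 39 cells, as log2(FPKM + 1) on the vertical axis, with genes in order of median FPKM; each point is 1 cell and the black line is the median. Canx, Hspa5 and Hsp90b1 form compact columns at the top, Pdia6, Atf4, Pdia4 and Xbp1 spread from 0 upwards, and Ddit3 lies at 0 in 34 cells.

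By median FPKM the order was Canx, Hspa5, Hsp90b1, Pdia6, Calr, Pdia3, Atf4, Pdia4, Xbp1 and Ddit3. No neighbours in this order differed by more than the spread of their difference over cells. The mean log2 difference ran against the order from Pdia6 to Calr (−0.589 ± 3.241), Calr to Pdia3 (−0.115 ± 2.503) and Pdia4 to Xbp1 (−0.118 ± 2.971). Canx exceeded Hspa5 by 0.52 ± 1.67 (mean ± SD, log2) and was higher in 25 of 39 cells, and Hspa5 exceeded Hsp90b1 by 0.04 ± 0.90, higher in 23 cells. The widest mean step was from Atf4 to Pdia4 (2.76 ± 2.96, Atf4 higher in 31 cells). The steps from Hsp90b1 to Pdia6 (1.94 ± 2.85, Hsp90b1 higher in 30 cells) and from Pdia3 to Atf4 (1.90 ± 2.99, Pdia3 higher in 28 cells) followed. Thus a stress factor stood above a folding gene: Atf4 exceeded Pdia4 in most cells, and Pdia4 and Xbp1 lay side by side, with Pdia4 higher in 18 cells, Xbp1 in 16 and equal values in 5.

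As groups, the folding genes exceeded the factors in every cell. The mean log2(FPKM + 1) of the 7 folding genes was 6.66 ± 1.18 and that of the 3 factors 2.53 ± 1.55 (SD over 39 cells). The difference within a cell was 4.13 ± 1.39, ranged from 1.01 in cell 16 to 6.95 in cell 83, and was above 0 in 39 of 39 cells. Summed FPKM of the folding genes had a median of 1761 (from 234 in cell 9 to 4436 in cell 5), and that of the factors a median of 97.8 (from 0 in the cell that lacked all 3 factors to 474 in cell 65). The ratio of these sums had a median of 17.6 and was lowest, at 3.24, in cell 65. The separation was one of averages: in only 3 cells was every single folding gene above every factor. Since 7 genes are compared with 3, the sums also differ by the number of genes.

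Detection within a cell was counted for each group. All 7 folding genes were detected in 21 cells, 6 in 12 cells and 5 in the other 6. All 3 factors were detected in only 2 cells, which were cells 5 and 63. A total of 16 cells had 2 factors, 18 had 1 and 3 had 0. Of the 3 cells with no factor detected, cells 83 and 94 held 1761 and 1928 FPKM of folding genes, at or above the median, and the cell with all factors at 0 held 1355.

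**Figure D2:**
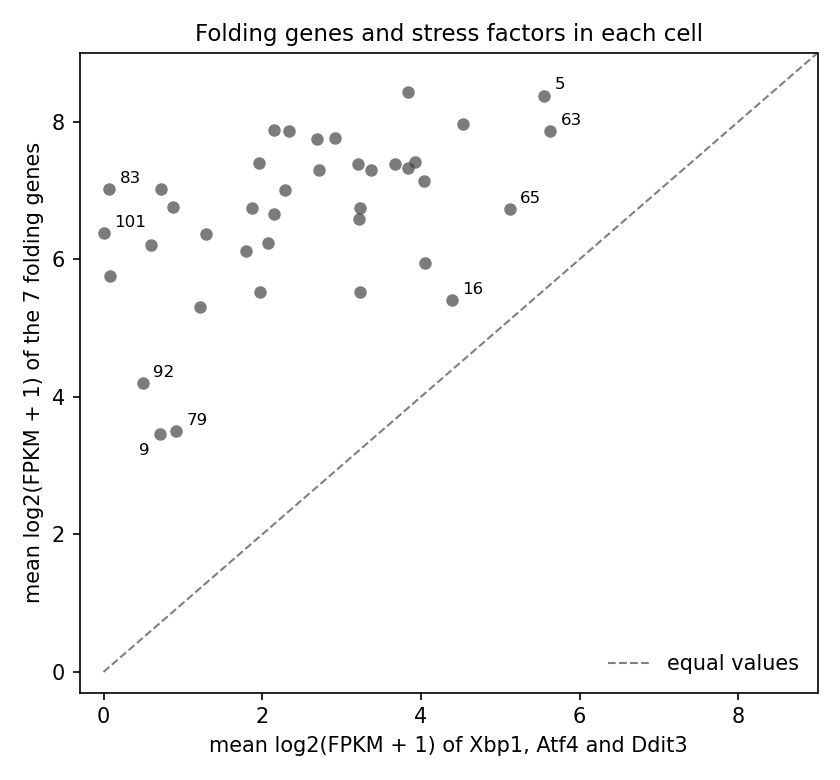
Mean log2(FPKM + 1) of the 7 folding genes (vertical) against that of Xbp1, Atf4 and Ddit3 (horizontal); each point is 1 of 39 cells, some with their cell number, and the dashed line marks equal values. All 39 points lie above the line, closest for cells 16 and 65, and cells 9, 79 and 92 have the lowest folding values.

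Over cells some members varied together, above all the pair Hspa5 and Hsp90b1. Spearman's rho was computed for each of the 45 pairs over 39 cells, as a description with no test, since the cells count as 1 sample and differ in depth. The median was 0.24, and 12 pairs had a rho of 0.3 or more. Of the 28 pairs among the 8 members detected in at least 20 cells, 11 did (39.3%), against 8.73% of 6717945 pairs among all 3666 genes so detected. Levels differ between these sets. Among the 685 genes with a median of 100 FPKM or more, 12.1% of pairs reached 0.3, and 6 of the 15 pairs among the 6 such members did. Without cells 9 and 79, 10 of the 45 pairs reached 0.3, beside 6.06% of all pairs of the 3666 genes, which leave out Xbp1 and Ddit3.

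The strongest pair was the 2 chaperones, Hspa5 and Hsp90b1, at 0.525. Next came Canx with Pdia6 (0.410) and with Pdia3 (0.403), the lectin and its isomerase partner. Without cells 9 and 79, Canx had 0.312 with Pdia6 and 0.301 with Pdia3, and Hspa5 had 0.466 with Hsp90b1. Pdia3 and its other lectin partner Calr had 0.239. In contrast, the 2 lectins Calr and Canx showed no common order of cells (−0.08), and Canx and Hsp90b1 little (0.0920). Among the 21 pairs of folding genes 8 reached 0.3, and among the 21 pairs of a folding gene and a factor 4 did: Atf4 with Pdia4 (0.372), Pdia6 (0.368) and Calr (0.351), and Xbp1 with Calr (0.367). No pair of factors reached 0.3, with Xbp1 and Atf4 at 0.270. Xbp1 and the 2 chaperones were close to unrelated (0.0600 with Hspa5 and 0.0220 with Hsp90b1).

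The number of genes detected in a cell moved with several members. The mean of the folding genes had a rho of 0.601 with it. Of the 10 members, 5 reached 0.3 (Hspa5, Canx, Pdia4, Pdia6 and Atf4), against 33.3% of all genes tested, and the median over members was 0.322 against 0.219. When ranks were adjusted for genes detected, the median over the 45 pairs was 0.132 and 7 pairs reached 0.3. Of the 28 pairs among the 8 members detected in at least 20 cells, 6 did (21.4%), with a median of 0.134. Among all genes so detected the median was 0.0250 and 5.48% of pairs did. With a median of 100 FPKM or more, 5 of the 15 pairs of members did, against 10.8% of pairs of genes. Hspa5 with Hsp90b1 kept 0.501, Canx with Pdia3 0.372 and Calr with Xbp1 0.361, while Canx with Pdia6 had 0.259 and Pdia4 with Atf4 0.198.

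**Figure D3:**
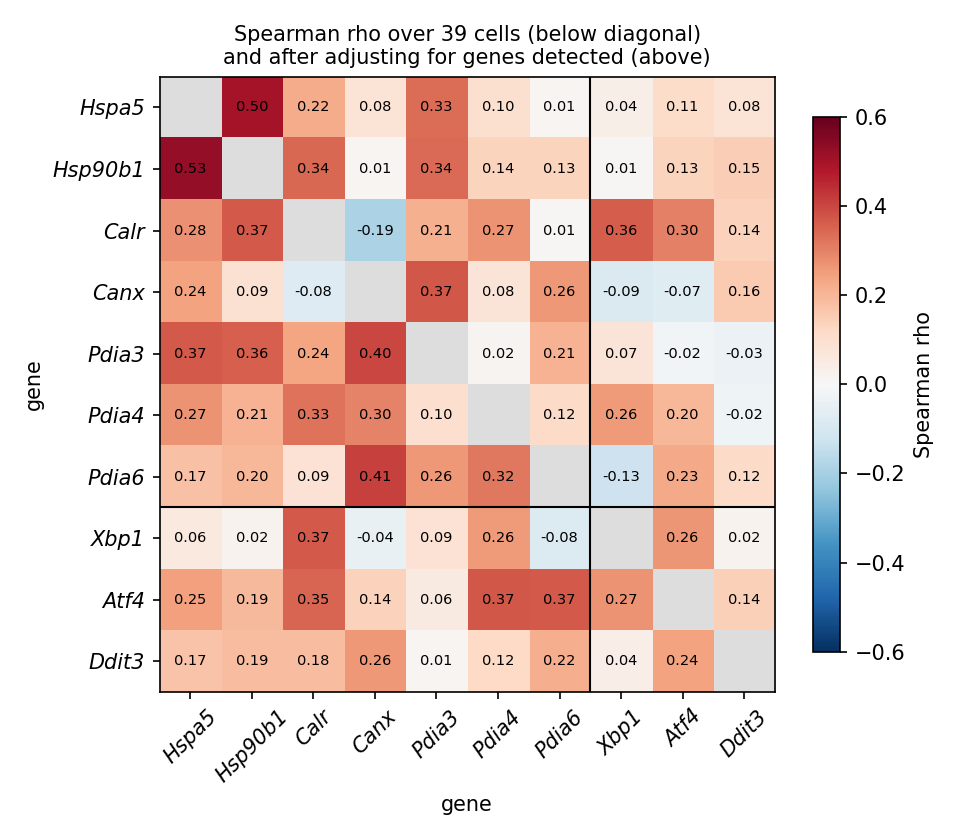
Spearman's rho between the 10 genes over 39 cells, below the diagonal as measured and above it after adjusting ranks for the number of genes detected; colour and printed number give rho, and black lines part the 7 folding genes from the 3 factors. Hspa5 with Hsp90b1 is the highest pair on both sides, at 0.525 and 0.501.

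The relation to Paneth cell RNA was then examined. Paneth cells at the crypt base secrete antimicrobial peptides, and their RNA was summed over 14 markers, among them lysozyme (Lyz1) and the defensins. Nearly all cells held some of it: the sum ran from 9.55 FPKM in cell 36 over a median of 439 to 21662 in cell 56, and Defa24 was detected in 38 of 39 cells. The sum had a rho of −0.376 with the number of genes detected and 0.480 with goblet marker RNA.

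No member had a rho of 0.3 or more with Paneth RNA, against 1.18% of 3657 genes tested. With the list cut to Lyz1, Mmp7, Ang4 and Itln1, this no longer held: Xbp1 had a rho of 0.311, and 3.72% of genes reached 0.3. Canx had −0.380, and was the 1 member at −0.3 or less, against 13% of genes. Without the cell with the most Paneth RNA, Canx had −0.332 and Atf4 also passed this limit, with −0.336. Under the shorter list Canx had −0.140, so that no call was left in this direction, and Pdia3 had 0.127 in place of −0.216. Xbp1 (0.235) and Calr (0.148) were the highest, above 97.6% and 93.7% of genes tested. As Pearson's r, Calr had −0.051 and Xbp1 0.169, and without cells 5 and 63 their rho was 0.066 and 0.191. Atf4 had −0.281. The median over the 10 members was −0.163, beside −0.109 over all genes tested, and 0.0420 under the shorter list. After adjusting for genes detected the median over members was −0.02, Xbp1 had 0.284, Calr 0.241 and Canx −0.250. Without cells 5 and 63, 3 members were at −0.3 or less: Canx (−0.382), Atf4 (−0.372) and Pdia6 (−0.322), against 14.4% of genes without these cells.

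The cell richest in Paneth RNA did not follow these relations for all members. Hspa5, Hsp90b1, Pdia3 and Atf4 stood above their medians there, although their rho with Paneth RNA was negative. Cell 56 held 599 FPKM of Hspa5, 369 of Hsp90b1, 336 of Calr and 303 of Pdia3, each above the gene's median. Canx stood at 146 FPKM, rank 37 of 39 cells, and Pdia4 and Pdia6 were listed at 0. Of the factors, Xbp1 stood at 32.8 FPKM and Atf4 at 133, both above their medians, and Ddit3 was listed at 0. At the other end, cell 36, with the least Paneth RNA, had 778 FPKM of Canx, 128 of Pdia4, 233 of Pdia6 and 81.2 of Xbp1. Xbp1 was thus high in cells at both ends of the Paneth scale.

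**Figure D4:**
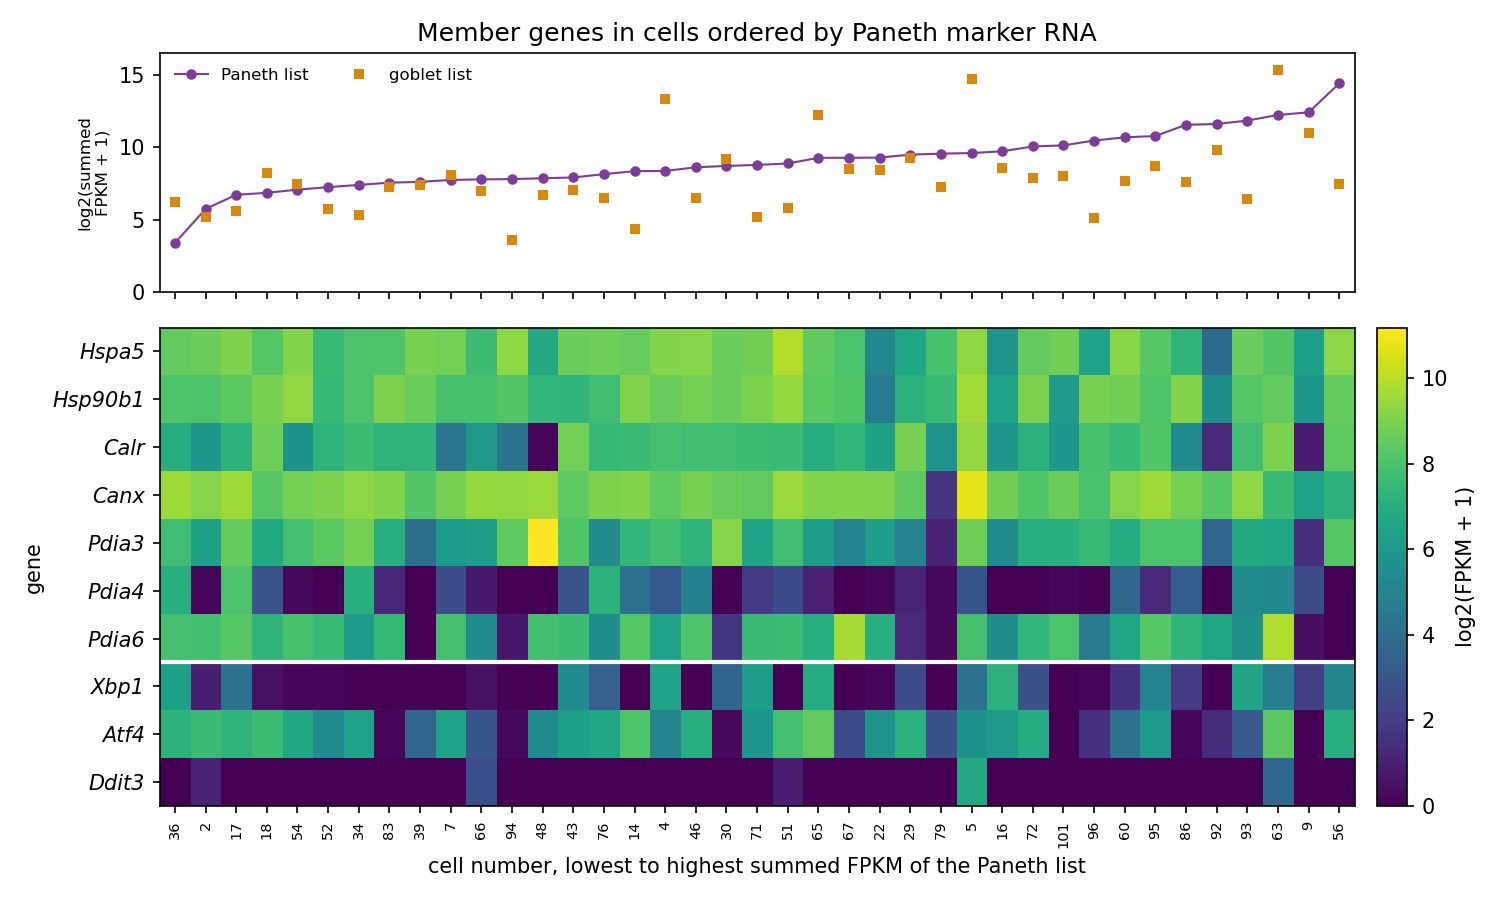
Heat map of log2(FPKM + 1) for the 10 genes (rows) in 39 cells (columns), ordered from the lowest to the highest summed FPKM of the Paneth list; the upper panel gives the log2 of the summed Paneth (line) and goblet (squares) marker RNA per cell. Canx is bright over most cells and darker at the right end, and the bright Ddit3 fields are cells 5 and 63, which also have the highest goblet sums.

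Goblet cells secrete mucus, and their marker RNA was compared in the same way, a comparison added after the data had been seen. Again no member had a rho of 0.3 or more. Since only 2.16% of 3662 genes had, this count also says little about the members. Xbp1 had the highest value (0.288, above 97.5% of genes tested) and Canx the lowest (−0.323). Canx had −0.211 after adjusting for genes detected and −0.071 as Pearson's r, and Pdia3 was then the lowest (−0.249 and −0.185). After adjusting for genes detected Xbp1 passed 0.3, with 0.328 against 4.45% of genes, and as Pearson's r, with 0.378 against 1.75% of genes. Ddit3 had a rho of 0.0660 over all cells and of −0.266 without cells 5 and 63, and a Pearson's r of 0.531 over all cells. The median over the 10 members was −0.097, and −0.235 without cells 5 and 63. Cells 5 and 63 were the 2 highest for goblet RNA, for Calr and for Ddit3, and they held Canx at 1684 and 198 FPKM, ranks 1 and 36 of 39. Cell 5 also led all cells for Hsp90b1 and Canx, and cell 63 for Pdia6. The next cells by goblet RNA, 4 and 65 (10280 and 4817 FPKM), had Ddit3 listed at 0 and Calr at ranks 9 and 25. Cell 63 was also at rank 3 for Paneth RNA (4798 FPKM), with the highest Lyz1 (1498 FPKM), Mmp7 (1471) and Itln1 (892) of all cells. The part of goblet and Paneth RNA in these values was not tested.

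The wider ER machinery was read from 6 lists with 54 genes in the table, of which 29 were detected in at least 20 cells. Of these 29, 14 (48.3%) had a rho of 0.3 or more with the mean of the 7 folding genes, against 20.3% of 3658 genes tested, with medians of 0.265 and 0.163. Without cells 9 and 79 it was 12 of 29 against 11.9%, and without cells 5 and 63 it was 11 of 29 against 24.0%. After adjusting for genes detected the medians were 0.251 and 0.0440.

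Genes of protein entry into the ER were the most widely detected. All 12 genes of the translocon, the signal peptidase and the translocon-associated proteins were detected in at least 20 cells, from Ssr4 (median 212 FPKM) and Ssr2 (206) down to Sec63 (1.42). Of these 12, 3 reached a rho of 0.3 with the folding mean, among them Ssr4 (0.415), a share near the 20.3% of all genes tested. Other folding enzymes were led by the prolyl isomerase Ppib (median 244 FPKM, detected in all 39 cells) and by P4hb, the classical disulfide isomerase (136 FPKM, 36 cells, rho 0.428), while Pdia5 was detected in 9 cells. A total of 4 of the 6 genes of this list that were detected in at least 20 cells reached 0.3.

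Co-chaperones and stress-induced ER proteins were lower. Manf, a secreted ER protein induced by stress, had a median of 39.5 FPKM, Creld2 5.01 and Dnajb9, a BiP co-chaperone, 0. Of the 5 detected in at least 20 cells, 3 reached a rho of 0.3 with the folding mean, against 20.3% of all genes tested. Manf (301 FPKM), Creld2 (319) and Dnajc3 (100.8) each had their highest value in cell 5, the cell with the most Ddit3. This did not hold for all stress genes: in cell 5, Hyou1 stood at 1.27 FPKM (rank 16), Dnajb9 at 1.58 (rank 10), and Psat1 and Atf3 were listed at 0. For degradation of misfolded proteins, Herpud1 (median 41.7 FPKM) and Vimp (30.03) were highest, both with their top value in cell 63. Derl3 was detected in 0 cells. Of the 4 genes detected in at least 20 cells, 3 reached 0.3: Herpud1 (0.330), Vimp (0.482) and Derl1 (0.591, named after its value was seen). After adjusting for genes detected they had 0.253, 0.305 and 0.404. Derl1 had a rho of 0.526 with the number of genes detected.

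The RNAs of the stress sensors were found in few cells, with highest values of 98.6 FPKM for Ern2, 61.5 for Atf6b, 26.9 for Atf6 and 8.72 for Eif2ak3. All 5 had a median of 0 FPKM: Atf6, the factor that binds ERSE, was detected in 11 cells and Eif2ak3 (PERK) in 4 (both named after their values were seen), Atf6b was detected in 8 cells, Ern2, the sensor of the IRE1 family found in gut epithelium, in 4, and Ern1 in 0 of 39. Counting 3 cells as the limit that a count of 0 allows, up to 7.69% of cells could have Ern1 at the detection limit (9.03% by the exact interval), which does not limit the share of cells that express it. Of 10 known targets of Atf4 and Ddit3, 2 were common. Asns, which makes asparagine, had a median of 124 FPKM (34 cells), and Psat1, of serine synthesis, 18.98 (27 cells). Their rho with Atf4 was 0.180 for Asns and 0.367 for Psat1, and 11.9% of all genes tested reached 0.3 with Atf4. With the number of genes detected, Atf4 had a rho of 0.421, Psat1 0.469 and Asns 0.286. Trib3, Chac1 and Vldlr were listed at 0 in all 39 cells. Atf3, named after its values were seen, was detected in 4 cells and reached 323 FPKM in cell 66, the cell with the third highest Ddit3 and only 6.97 FPKM of Atf4.

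Genes outside the member list whose promoter window held ERSE were looked up in the same cells. There were 22 in the table, and 4 were in the lists above (Creld2, Derl3, Dnajc3 and Syvn1). Only 3 of the 22 were detected in at least 20 cells: Creld2, with a rho of 0.353 with the folding mean, Dnajc3 (0.223) and Hnrnpa3 (−0.137), an RNA-binding protein gene. With so few expressed genes, the motif and the variation over cells could not be related outside the member list. Among pairs of folding members that both held ERSE, rho ran from −0.076 (Calr with Canx) to 0.525 (Hspa5 with Hsp90b1). Among the other pairs of folding members it ran from 0.102 (Pdia3 with Pdia4) to 0.403 (Canx with Pdia3). Whether the motif bears on rho was not tested.

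The genes most like the folding mean, among those detected in at least 20 cells, were Atp5g1 (rho 0.678), Tmem41b (0.658), Cdk2ap2 (0.640), Sec13 (0.634), Aco1 (0.631), Tmem161b (0.609), Txn2 (0.608), Timm21 (0.601), Zfp317 (0.600) and Cpsf4 (0.597). Atp5g1 encodes a subunit of the mitochondrial ATP synthase and was detected in all 39 cells, and Sec13 encodes a coat protein of vesicles that leave the ER. Each of the 10 also had a rho of at least 0.421 with the number of genes detected. For the factors, the genes most alike were Gnpnat1 (0.591), Rwdd4a (0.551) and Exosc5 (0.544) for Xbp1, Tacc3 (0.605), Rps19bp1 (0.597) and Oit1 (0.583) for Atf4, and Dnajc19 (0.505), 1500012F01Rik (0.456) and Ctsh (0.452) for Ddit3. The values for Ddit3 rest on the 5 cells in which it was above 0.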

How the data were processed

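RNA of 39 single cells was measured with SMARTer and Nextera XT libraries of cells captured on a C1 chip. The submitters' processing notes name bcl2fastq 1.8.4, TopHat2 2.0.14 and the build mm10 (GRCm38). The tool that assigned reads to genes, and whether it used strand, is not given in the sources used here. The authors deposited FPKM values, normalized to transcript length and to a total per cell, and estimated counts, which are not normalized, for 25219 genes in each cell. FPKM values were used as deposited, and the estimated counts only for depth and, rounded, for thinning to 600000. The design assumed no count test, and none was run.

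The members and the gene lists were chosen with earlier results of these data known. Levels were compared on the log2 scale after adding 1 FPKM to every value. Relations over cells were Spearman's rho, and a rho of 0.3 or more among genes detected in at least 20 cells was counted. The adjusted rho was computed on residuals of ranks after a linear fit on the rank of genes detected. Besides the members, the text names the 10 genes most like the folding mean, the 3 most like each factor, and the highest 2 and lowest 1 of each list by median and, where medians tie, by mean. Other names were chosen after their values were seen. Of the marker lists, 1 goblet gene (Clca3) was not matched.

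No molecular identifiers are named, so counts do not equal molecules, and intervals (exact Clopper-Pearson, 95%) cover counting error only. Capture sites were inspected under the microscope and no doublet caller was run. No 2 cells had identical values, and the highest Pearson r between cells was 0.693 on the log2 scale. Every value column belonged to 1 of the 39 cells. Promoter windows came from RefSeq (GRCm38.p6), and the bases after the start site were found in a transcript of the gene in GENCODE for all members but Pdia4. The correlation step was tested on simulated data. The software was matplotlib 3.10.9, scipy 1.17.1, numpy 2.4.6 and pandas 2.3.3 under Python 3.11.15.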

Additional observations from a re-analysis of the deposited data

How the results depend on the processing

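The limits are those of 39 cells from an unknown number of mice, with no molecular identifiers and depths that differ between cells. A 0 may be a transcript lost before amplification. The folding genes exceeded the factors by 4.13 on the log2 scale, and by between 4.21 and 5.49 under a pseudocount of 0.1 FPKM, without cells 9 and 79, without cells 5 and 63 and with the ratio of median FPKM. Between 7 and 9 members were detected in at least 50% of cells under other detection limits. The median rho of the members with Paneth RNA was −0.163, between −0.223 and −0.022 under 7 alternatives, and 0.0420 when the list was cut to Lyz1, Mmp7, Ang4 and Itln1. That list without defensins also moved Canx to −0.140, Pdia3 to 0.127 and Xbp1 from 0.235 to 0.311, past the limit of 0.3. The median rho with goblet RNA was −0.097, and 0.0610 after adjusting for genes detected, when Xbp1 passed the limit with 0.328. Without cells 5 and 63 it was −0.235. The rho of Ddit3 with goblet RNA was 0.0660 over all cells and −0.266 without cells 5 and 63. Of the 10 genes most like the folding mean, 5 were also among the 10 after adjusting for genes detected and 4 when detection in 30 cells was required. The causes were not tested. No paired analysis was possible because the cells form 1 group.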
